A study of Danio rerio with 12 samples.

Results

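The 5 genes described here encode a receptor, a secreted ligand and 3 transcription factors of the endothelium, the cell layer that lines blood vessels. They are kdrl (ENSDARG00000015815), ANGPT2 (ENSDARG00000014946), SOX7 (ENSDARG00000030125), foxf2b (ENSDARG00000070389) and HLX (ENSDARG00000009134), chosen by their gene IDs from the 33737 IDs of the RPKM table. The choice was made with earlier results of these data known. RPKM divide a gene's reads by its length and by the library's reads, so levels of different genes can be set side by side. All 5 genes passed the filter on low values and were among the 17613 genes tested. The study asked how macrophages repair a ruptured brain vessel in the zebrafish larva, and RNA was sequenced from endothelial end cells, the cells at the end of the vessel, and from macrophages.

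Endothelial cells came from Tg(flk1:DenNTR; coro1a:eGFP) larvae and carried red, photoconverted Dendra2, while macrophages came from Tg(coro1a:Kaeda; flk1:eGFP) larvae and carried red Kaeda. Both lines had the strain label ABGO, so each cell type came from its own transgenic line and the difference between lines cannot be told apart from that between cell types. Each cell type was taken at 3 lesion stages, an uninjured control, macrophage arrival and macrophage traction, with 2 libraries in each of the 6 groups. A 405-nm laser was applied for 30 seconds to convert about 80 cells in 20 animals, heads were dissected, and red cells were collected by flow sorting and sequenced with Smart-seq2, which makes full-length cDNA from very little RNA. The age of the larvae was not given in the sources used here, and the labels do not say whether the 2 libraries of a group came from separate animals, so the p-values speak only for the spread between these libraries, which may be technical. Because flk1 is an older name of kdrl, the endothelial reporter is driven by the promoter of a gene reported here.

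In vertebrates, VEGF ligands bind receptor tyrosine kinases on endothelial cells and drive vessel growth, and zebrafish kdrl encodes a major receptor of this pathway. Angiopoietins bind the Tie receptors, and angiopoietin 2, made by endothelial cells, can weaken or mimic the action of angiopoietin 1, which keeps vessels stable. SOX7 belongs to the SoxF transcription factors, which act in arterial and venous specification together with SOX18. The forkhead factor Foxf2 is known in the mouse for its role in pericytes of brain vessels, and Hlx, a homeobox factor, for its role in gut and liver mesenchyme of the mouse.

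Reads in genes ran from 12283046 to 39447004 a library. Spearman's rho across tested genes was 0.35 to 0.522 (median 0.37) for the 6 pairs of libraries within a group. It was 0.282 to 0.6 (median 0.415) between groups of 1 cell type and 0.169 to 0.481 (median 0.303) between cell types. By the median, libraries of a group were thus no more alike than libraries of different groups of 1 cell type. Endothelial identity was checked with cdh5 and pecam1a, adhesion proteins of endothelial junctions. In the endothelial libraries cdh5 lay between 0.555 and 189.6 RPKM, against 0 to 0.0269 RPKM in macrophage libraries, and the lowest endothelial value, of 40 reads, was that of traction replicate 1. Pecam1a lay between 14.9 and 180.2 RPKM in endothelial libraries, against 0 to 5.24 RPKM in macrophage libraries, with 244 reads in macrophage arrival replicate 1. The 41 macrophage markers added up to 25.2 to 214 RPKM in 5 endothelial libraries, against 10889 to 39454 RPKM in macrophage libraries, and 14 to 22 of the 41 were at 0 in an endothelial library. Endothelial control replicate 2 stood apart with 2796 RPKM of them, among them CORO1A at 704 RPKM, where the other endothelial libraries had at most 5.59 RPKM. CORO1A (255 to 1022 RPKM in macrophage libraries) and LCP1 (357 RPKM, against 68.1 to 1075 RPKM) were within the macrophage range there. The MPEG1 copy with the most macrophage reads was not, at 22.8 RPKM against 209 to 1018 RPKM. The cell type behind these reads was not tested. Photoreceptor and lens markers, 37 IDs, came to 34495 RPKM in endothelial arrival replicate 2 and 37193 RPKM in endothelial traction replicate 1, against 13.6 to 218 RPKM in the other 4 endothelial libraries and 21.6 to 1841 RPKM in macrophage libraries. CRX, a photoreceptor transcription factor, had 157 and 243 RPKM in these 2 libraries and was at 0 in 3 of the other 4 endothelial libraries. Among macrophage libraries CRX had 44.0 RPKM (1505 reads) in arrival replicate 1 and at most 1.52 RPKM in the others. Erythroid markers, 19 IDs, reached 18730 to 66182 RPKM in 5 endothelial libraries and 76.9 RPKM in endothelial arrival replicate 1, against 46.2 to 231 RPKM in macrophage libraries. Neuron markers (24 IDs) held 213 to 2777 RPKM in endothelial libraries, against 71.3 to 472 RPKM in macrophage libraries, and epidermal markers (14 IDs) 133 to 2169 RPKM, against 17.2 to 1188 RPKM. In such bulk libraries, fewer cells of a type and less RNA per cell cannot be told apart.

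The first comparison asked which of the 5 genes separated endothelial cells from macrophages over all stages. All 5 were higher in endothelial cells, by 4.98 to 7.27 on the log2(RPKM + 1) scale, each past an adjusted p of 0.05 in limma's test. Among all tested genes 119 were called higher in endothelial cells, which is 0.676% of 17613, and 378 were called lower. The median difference of the 5 genes was 6.49, against -0.185 over all tested genes. The genes were also placed in the order of p among 7410 genes with a higher mean in endothelial cells. There SOX7 stood at place 6, HLX at 8, foxf2b at 22, ANGPT2 at 25 and kdrl at 35. The 5 genes were chosen with earlier results of these data known. Their calls, places and median may thus partly restate that choice.

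**Figure D1:**
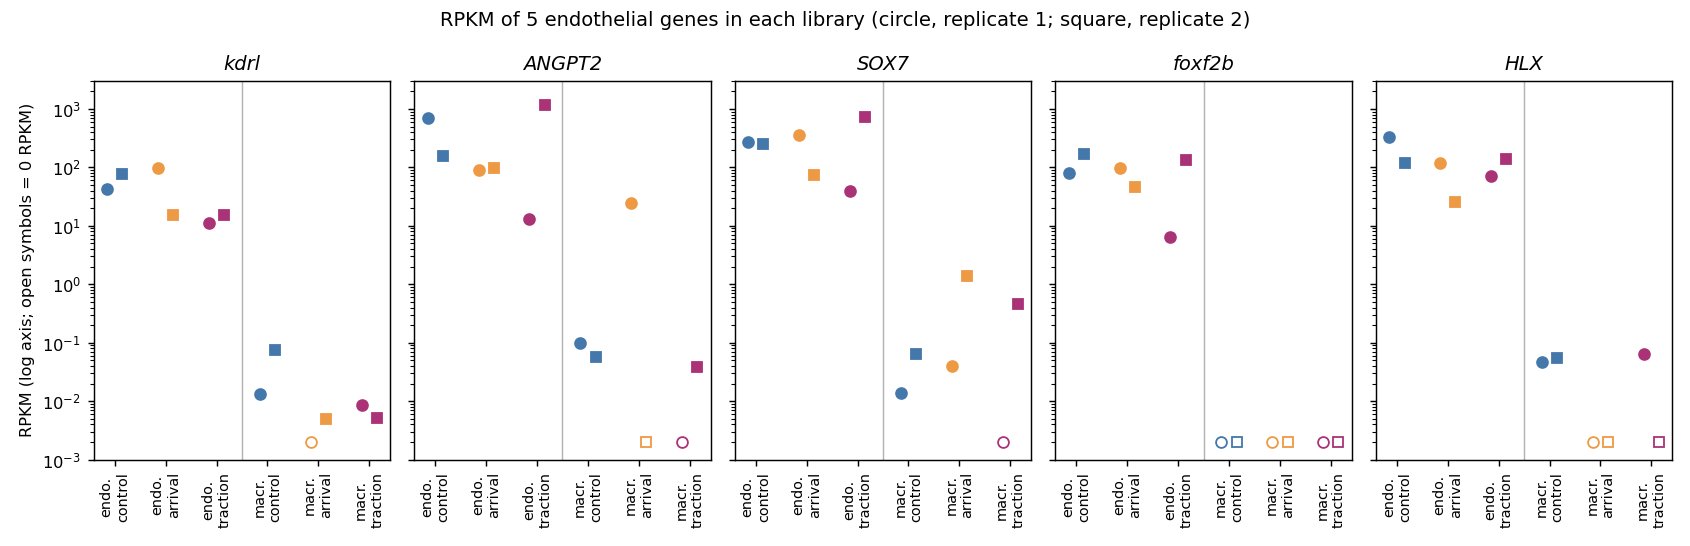
RPKM (log axis) of kdrl, ANGPT2, SOX7, foxf2b and HLX in each of the 12 libraries, endothelial groups left of the grey line and macrophage groups right of it, with a circle for replicate 1, a square for replicate 2 and open symbols at the bottom for 0 RPKM. Every endothelial library lies above every macrophage library for 4 genes, and for ANGPT2 endothelial traction replicate 1 (13.04 RPKM) lies below macrophage arrival replicate 1 (25.0 RPKM).

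Kdrl, the receptor, had 42.7 and 77.8 RPKM in endothelial control, 97.3 and 15.4 RPKM in endothelial arrival and 11.4 and 15.2 RPKM in endothelial traction (replicates 1 and 2). In macrophages it had 0.0131 and 0.0755 RPKM at control, 0 and 0.00498 RPKM at arrival and 0.00872 and 0.00524 RPKM at traction. Both control libraries and arrival replicate 1 were thus the high endothelial libraries, and no macrophage library came near them. The macrophage values rest on 10 reads in all, against 38177 reads in endothelial cells. The difference was 4.98 ± 0.999 (SE, 6 against 6 libraries; adjusted p = 0.00342, limma). The lowest endothelial level was 151 times the highest macrophage level, in cells that were sorted by a reporter under this gene's promoter.

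ANGPT2, the secreted ligand, had the widest spread of the 5. Endothelial cells had 708 and 158 RPKM at control, 91.1 and 96.8 RPKM at arrival and 13.04 and 1146 RPKM at traction. Macrophages had 0.0972 and 0.0560 RPKM at control, 25.0 and 0 RPKM at arrival and 0 and 0.0388 RPKM at traction. The highest and the lowest endothelial library were both traction libraries, 87.9-fold apart. The difference between cell types was 6.49 ± 1.204 (SE; adjusted p = 0.00165, limma), although the cell types overlapped.

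The overlap came from macrophage arrival replicate 1, where ANGPT2 had 712 reads, against at most 4 reads in any other macrophage library. In that library LMO2, a transcriptional cofactor of blood and endothelial cells, had 25.1 RPKM. Pdgfbb, a ligand that endothelial cells send to mural cells, had 6.94 RPKM, and pecam1a had 5.24 RPKM. Among named genes, LMO2, pdgfbb and pecam1a had the highest correlation with ANGPT2 over all libraries, macrophage arrival replicate 1 included. Their high levels in that library are thus partly built into the choice of these genes. The other 4 genes of the set were at or near 0 there, with 2 reads of SOX7 and no read of kdrl, foxf2b or HLX, and cdh5 had 1 read. The 43 other endothelial surface genes summed to 171 RPKM in this library, within the macrophage range of 165 to 454 RPKM. Endothelial libraries had 411 to 4551 RPKM of these genes, so the 2 ranges overlapped and this sum does not fully separate the cell types. The cause of the ANGPT2 value in this library was not tested.

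SOX7, the SoxF factor, had the largest difference of the 5 on the log2(RPKM + 1) scale, a place that depends on the scale. With the reads of the 6 libraries of each cell type pooled, SOX7 was 610-fold higher in endothelial cells. By the same measure ANGPT2 was 107-fold, kdrl 3507-fold, HLX 5431-fold and foxf2b at least 9442-fold higher. Endothelial cells had 267 and 251 RPKM at control, 353 and 75.02 RPKM at arrival and 38.8 and 717 RPKM at traction. Macrophages had 0.0138 and 0.0634 RPKM at control, 0.0398 and 1.39 RPKM at arrival and 0 and 0.451 RPKM at traction. The control libraries nearly coincided, while each lesion stage held a high and a low library. In macrophages, arrival replicate 2 with 133 reads and traction replicate 2 with 41 reads held nearly all of the 179 SOX7 reads. The difference was 7.27 ± 1.04 (SE; adjusted p = 7.50e-05, limma), and the lowest endothelial level was 27.9 times the highest macrophage level.

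The forkhead factor gene foxf2b was the only gene of the 5 with no read in any macrophage library. Endothelial cells had 79.98 and 169 RPKM at control, 98.7 and 47.0 RPKM at arrival and 6.39 and 136 RPKM at traction, from 30834 reads. The lowest value, in traction replicate 1, still rested on 308 reads. Against a floor of 3 reads over the 6 macrophage libraries together (0.00960 RPKM), the endothelial level with the reads of the 6 libraries pooled, 90.6 RPKM, was at least 9442-fold higher, a floor that covers counting error only. The difference in the fit was 5.99 ± 1.05 (SE; adjusted p = 8.79e-04, limma). Mural cells, where mouse Foxf2 is known to act, were looked for by 20 marker IDs, with a total of 97.2 to 415 RPKM in endothelial libraries and 92.3 to 1209 RPKM in macrophage libraries. Of the mural markers looked at singly, acta2 was at most 0.0266 RPKM and CSPG4 at most 1.75 RPKM in endothelial libraries. NOTCH3 was at most 4.53 RPKM, with 1415 reads in endothelial arrival replicate 2. Most of the list's sum in endothelial libraries thus came from IDs not named here. Whether mural cells were among the sorted cells was not tested.

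HLX, the homeobox factor, had 329.9 and 120.1 RPKM in endothelial control, 120.9 and 25.1 RPKM in endothelial arrival and 70.6 and 141 RPKM in endothelial traction. In macrophages it had 0.0475 and 0.0547 RPKM at control, 0 in both arrival libraries and 0.0631 and 0 RPKM at traction, from 5 reads in all. Its high library was control replicate 1 and its low library arrival replicate 2. The difference was 6.67 ± 1.014 (SE; adjusted p = 1.48e-04, limma), and the lowest endothelial level was 397 times the highest macrophage level.

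For 4 of the 5 genes every endothelial library thus lay above every macrophage library, a pattern that 108 of the 17613 tested genes had (0.613%). The calls of all 5 held under each of 21 alternative analyses, with adjusted p of at most 0.0251 (limma or voom). These alternatives refit the data whose earlier results were known when the genes were chosen, so they are not independent support. Endothelial cells were also sorted by a reporter under the kdrl promoter. Without the 3 libraries with the highest photoreceptor and lens sums the adjusted p of kdrl was 0.0175 in limma's test. Endothelial arrival replicate 1, the endothelial library with few erythroid reads, had the highest kdrl level of all libraries and the second highest SOX7 level. Its ANGPT2 level, 91.1 RPKM, was below every other endothelial library but traction replicate 1. Its foxf2b (98.7 RPKM) and HLX (120.9 RPKM) levels lay within the range of the other endothelial libraries. Endothelial arrival replicate 1 also had 41.6% of its reads in 1 gene, against 6.49% to 24.2% in the other libraries. It had the fewest genes with a read, 8929, against 10254 to 17011 in the others. The part of erythroid reads or of this 1 gene in these levels was not tested.

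Cell types were also compared within each stage, 2 libraries against 2. Endothelial cells were higher by 5.81 to 8.28 at control, by 4.22 to 6.70 at arrival and by 3.81 to 7.13 at traction on the log2(RPKM + 1) scale. None of these 15 differences passed limma's adjusted threshold, and their adjusted p lay between 0.111 (HLX at control) and 0.726 (ANGPT2 at arrival). The share of all tested genes called higher in endothelial cells was 0.0114% at control, 0% at arrival and 0.00568% at traction, that is 2, 0 and 1 genes, with 1427, 1243 and 1380 genes in either direction at an unadjusted p under 0.05. The 95% intervals of 14 of the 15 differences lay above 0, and that of ANGPT2 at arrival ran from -0.22 to 8.66. When voom, a weighted fit, was applied to reads recovered from the tables, 13 of the 15 passed, all but ANGPT2 and SOX7 at arrival. Voom also called far more genes in all. Of the 17613 tested genes it called 410 higher in endothelial cells at control, 485 at arrival and 132 at traction.

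**Figure D2:**
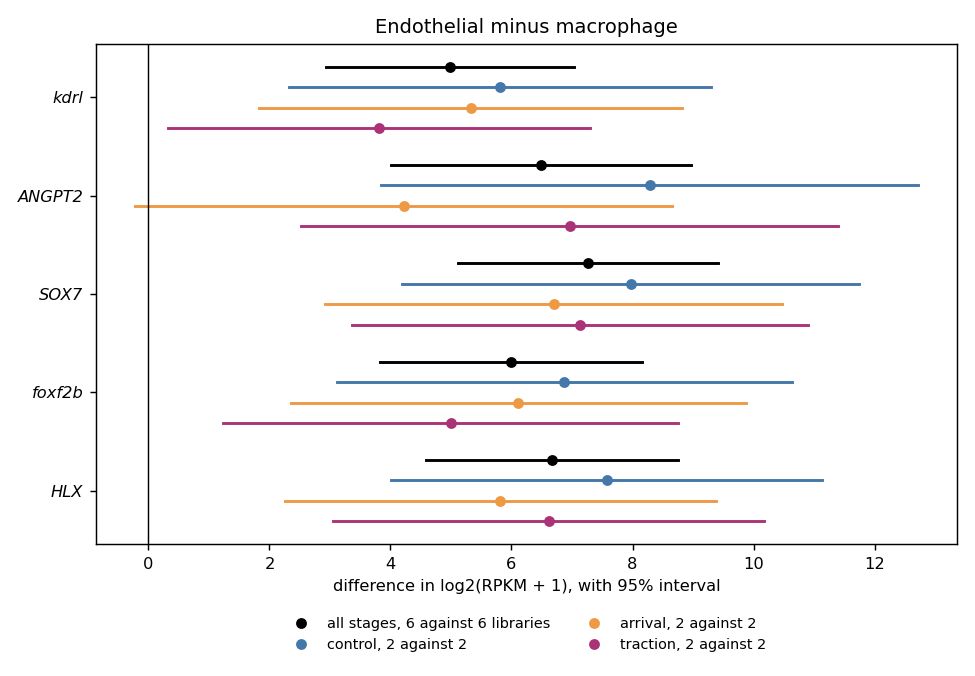
Difference in log2(RPKM + 1), endothelial minus macrophage, for each of the 5 genes, with points for the limma estimate and lines for its 95% interval, over all stages (black) and within control, arrival and traction. The black intervals lie between 2.93 (kdrl, lower end) and 9.41 (SOX7, upper end), and the only interval that reaches 0 is that of ANGPT2 at arrival.

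By mean level the 5 genes did not share an order of stages. Kdrl was in the order control (60.3 ± 24.9 RPKM), arrival (56.4 ± 57.9 RPKM) and traction (13.3 ± 2.73 RPKM; SD, n = 2 each), where control and arrival overlapped. ANGPT2 averaged 433 ± 389 RPKM at control, 94.0 ± 4.00 RPKM at arrival and 580 ± 801 RPKM at traction (SD, n = 2 each), and SOX7 259 ± 11.1, 214 ± 196 and 378 ± 479 RPKM at these stages (SD, n = 2 each). Foxf2b averaged 124 ± 62.6, 72.9 ± 36.5 and 71.3 ± 91.8 RPKM at control, arrival and traction (SD, n = 2 each). HLX averaged 225 ± 148, 73.0 ± 67.8 and 106 ± 50.04 RPKM at these stages (SD, n = 2 each). Neighbouring stages in each gene's own order overlapped except for kdrl arrival above traction and ANGPT2 control above arrival.

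The next comparison asked whether the genes changed in endothelial cells across the lesion stages, and no change passed the test. Kdrl had 11.4 and 15.2 RPKM at traction, below the 42.7 and 77.8 RPKM of control, a difference of -2.05 ± 1.66 (SE; 95% interval -5.54 to 1.44; adjusted p = 0.979, limma). ANGPT2 had 91.1 and 96.8 RPKM at arrival, below the 708 and 158 RPKM of control, a difference of -1.82 ± 2.105 (SE; 95% interval -6.26 to 2.62; adjusted p = 1.00, limma). Without endothelial control replicate 1 this ANGPT2 difference was -0.743, and without control replicate 2 it was -2.90. Traction and arrival did not overlap for kdrl either, with a difference of -1.50 ± 1.66 (SE; adjusted p = 1.00, limma), which was -0.211 without endothelial arrival replicate 1 and -2.79 without arrival replicate 2. Groups of 2 that do not overlap were common, at 22.2% of tested genes for arrival and control, 23.2% for traction and control and 19.4% for traction and arrival.

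HLX was lower at arrival than at control by the estimate, at -1.83 ± 1.69 (SE; adjusted p = 0.982, limma), and foxf2b lower at traction than at control, at -1.88 ± 1.79 (SE; adjusted p = 0.999, limma). The SOX7 estimates were -0.67 for arrival minus control, -0.62 for traction minus control and 0.04 for traction minus arrival. The intervals were wide: for SOX7, traction minus control ran from -4.40 to 3.15 on the log2 scale, so changes of many fold in either direction were not detectable with 2 libraries a group. With both lesion stages set together against control, the 5 differences lay between -1.61 (ANGPT2) and -0.64 (SOX7), and that of ANGPT2 was -0.024 without endothelial traction replicate 1 and -3.20 without traction replicate 2. Over all tested genes limma called 0% in each of these 4 contrasts, with 719 genes at an unadjusted p under 0.05 for arrival minus control, 669 for traction minus control, 595 for traction minus arrival and 823 for the lesion stages together. Voom called 297, 307, 228 and 209 genes in these 4 contrasts, none of them among the 5.

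**Figure D3:**
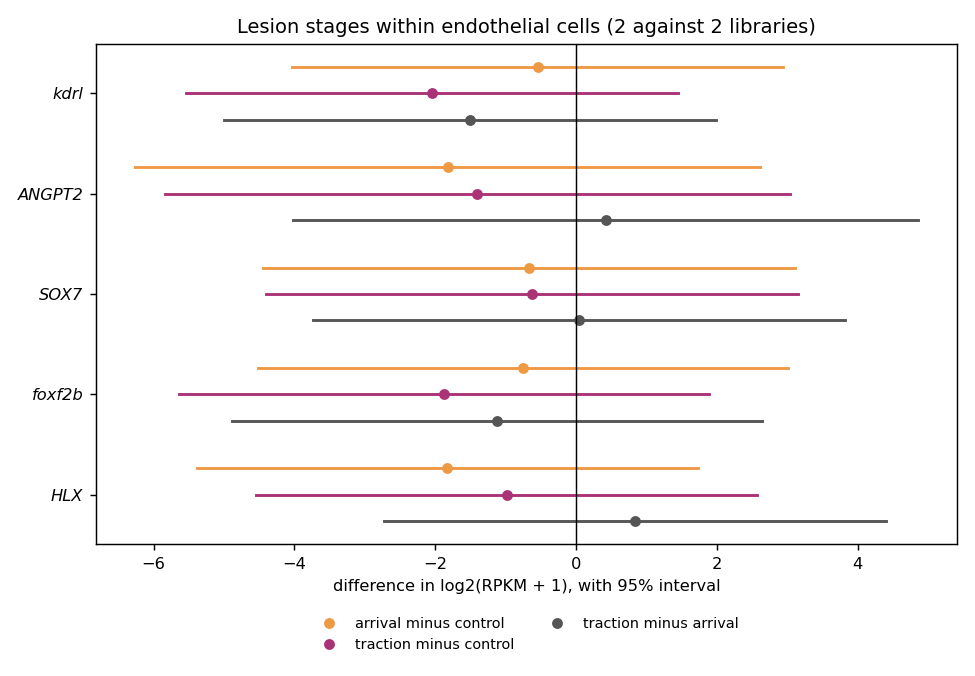
Differences in log2(RPKM + 1) between lesion stages within endothelial cells for each of the 5 genes, with points for the limma estimate and lines for its 95% interval, 2 against 2 libraries. Each of the 15 intervals includes 0, and the estimates run from -2.05 (kdrl, traction minus control) to 0.84 (HLX, traction minus arrival).

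Leaving out 1 library moved 19 of the 20 stage estimates by over 1.5 times or turned their sign, all but kdrl traction minus control, which stayed between -2.48 and -1.62. In endothelial arrival replicate 2 all of the 5 but ANGPT2 had lower levels than in arrival replicate 1, and in endothelial traction replicate 1 all 5 had lower levels than in traction replicate 2. These are the 2 libraries whose photoreceptor and lens markers came to 34495 and 37193 RPKM, and the part of these markers in the stage estimates was not tested. Without them and macrophage traction replicate 1, kdrl arrival minus control was 0.745, SOX7 traction minus control 1.465 and ANGPT2 traction minus control 1.774, each of opposite sign to the value with all libraries. This left 1 library in endothelial arrival and 1 in endothelial traction, so each value rests on 1 lesion library. Other stage estimates kept their sign without these libraries. Kdrl was low in both libraries with high photoreceptor and lens sums, at 15.4 RPKM (arrival replicate 2) and 11.4 RPKM (traction replicate 1). It was also low in traction replicate 2, at 15.2 RPKM, where these markers came to 24.9 RPKM. The part of these markers in the kdrl levels was not tested.

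The makeup of the set differed among endothelial libraries. The 5 genes summed to 1427 and 776 RPKM at control, 761 and 259 RPKM at arrival and 140.2 and 2156 RPKM at traction. ANGPT2 made up 53.2% of the sum in traction replicate 2 and 49.6% in control replicate 1, but 9.30% in traction replicate 1. HLX made up 50.3% in traction replicate 1, where SOX7 made up 27.7%, and 6.56% to 23.1% in the other 5 libraries. Kdrl ranged between 0.706% in traction replicate 2 and 12.8% in arrival replicate 1. The library with the largest sum thus had the smallest kdrl share. SOX7 was the leading gene in control replicate 2 (32.4%) and arrival replicate 1 (46.4%), and foxf2b led in none.

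**Figure D4:**
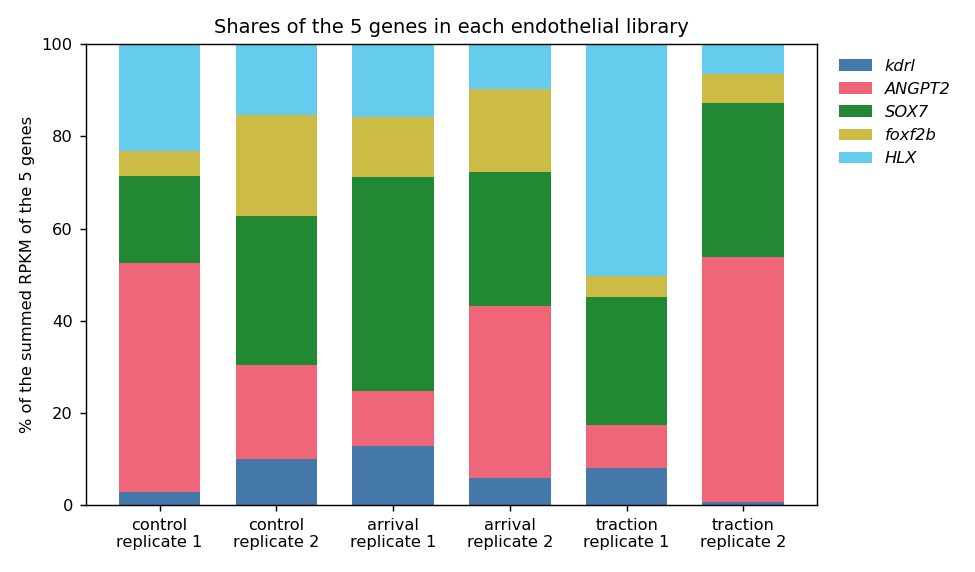
Share of each gene in the summed RPKM of the 5 genes, in percent, in each of the 6 endothelial libraries (control, arrival and traction, replicates 1 and 2). ANGPT2 takes 49.6% in control replicate 1 and 53.2% in traction replicate 2, and HLX takes 50.3% in traction replicate 1.

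Close copies of the 5 genes were measured in the same libraries, although reads that match more than 1 copy may have been missed or misassigned in counting. KDR, another VEGF receptor, had 0.156 and 26.5 RPKM in endothelial control, 9.97 and 2.46 RPKM in endothelial arrival and 0.0391 and 48.0 RPKM in endothelial traction, against 0 to 0.976 RPKM in macrophages. KDR was at its highest in traction replicate 2, where kdrl was low at 15.2 RPKM. In arrival replicate 2 and traction replicate 1 kdrl was low too (15.4 and 11.4 RPKM), and there KDR was at 2.46 and 0.0391 RPKM. Its difference between cell types was 2.45 ± 1.05 (SE; adjusted p = 0.329, limma), and voom was the only alternative that called it. The copy of ANGPT2 named angpt2b was nearly silent in endothelial cells, with at most 5.11 RPKM (arrival replicate 2), and its highest level of all was 59.8 RPKM in macrophage control replicate 2.

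The SoxF gene sox18 had 5.62 and 146 RPKM in endothelial control, 215 and 2.49 RPKM in endothelial arrival and 0.0275 and 343 RPKM in endothelial traction, against at most 0.213 RPKM in macrophages. Sox18 was high in control replicate 2, arrival replicate 1 and traction replicate 2, where SOX7 had 251, 353 and 717 RPKM. In control replicate 1, where SOX7 had 267 RPKM, sox18 was at only 5.62 RPKM. Sox18 was nearly absent, at 1 read, in traction replicate 1, where SOX7 kept 2368 reads. Its difference was 4.60 ± 1.31 (SE; adjusted p = 0.0537, limma), just short of the threshold, and 10 of 21 alternatives called it. The other forkhead F2 copy, foxf2a, had 0.0241 and 91.5 RPKM in endothelial control, 0 and 12.4 RPKM in endothelial arrival and 26.0 and 22.0 RPKM in endothelial traction. In macrophages foxf2a had 1 read in all. It differed between cell types by 3.26 ± 1.0996 (SE; adjusted p = 0.144, limma). FOXF1 had 7 reads in endothelial traction replicate 1 and none in any other library, and was not tested.

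**Figure D5:**
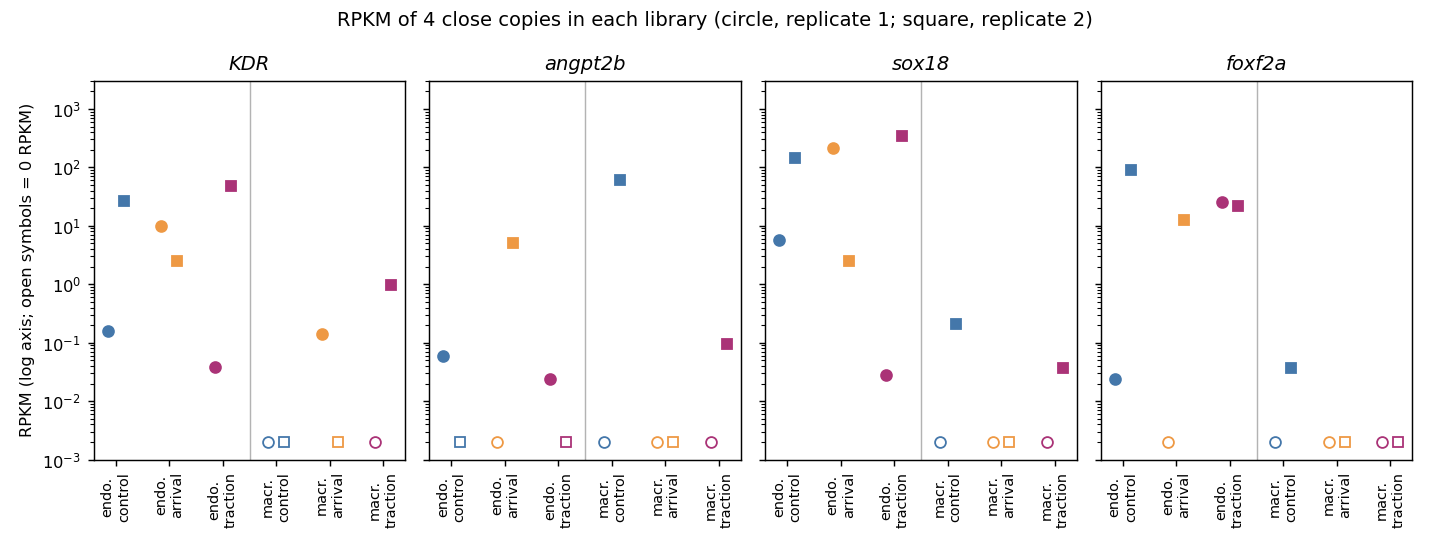
RPKM (log axis) of the copies KDR, angpt2b, sox18 and foxf2a in each of the 12 libraries, endothelial groups left of the grey line and macrophage groups right of it, with a circle for replicate 1, a square for replicate 2 and open symbols at the bottom for 0 RPKM. KDR, sox18 and foxf2a are each at 1 RPKM or less in at least 1 endothelial library, and angpt2b reaches 59.8 RPKM in macrophage control replicate 2.

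Beyond the 5 genes, their pathways were read from 6 lists, chosen with earlier results of these data known. Over all tested genes 0.676% were called higher in endothelial cells. The VEGF list had 13 other tested genes, with a median of 0.883, and included ptprb, which is neither a ligand nor a receptor of VEGF. Of these, flt1, a receptor that binds VEGF and limits its action, was higher in endothelial cells by 4.71 ± 1.14 (SE; adjusted p = 0.0175, limma). Flt1 had 101 and 86.0 RPKM in endothelial control, 12.8 and 23.0 RPKM in endothelial arrival and 0.0842 and 142 RPKM in endothelial traction. Its call ended in 4 of 21 alternatives. The angiopoietin and Tie list had 6 other tested genes, among them ptprb and foxo1a, which are neither angiopoietins nor Tie receptors. None of the 6 passed, with a median of 1.47, and TIE1, an orphan receptor partner of Tie2, came nearest at 3.48 ± 1.06 (SE; adjusted p = 0.0856, limma). TIE1 was called with quantile normalization and with voom, which called 4 genes of this list with ANGPT2 counted and 4 of the VEGF list with kdrl counted. Over all tested genes voom called 356 higher in endothelial cells, against 119 with limma. Ptprb was among the voom calls of both lists, and foxo1a among those of the angiopoietin and Tie list. The gene tek, which encodes Tie2, the receptor of ANGPT2, had a median of 1.603 RPKM in endothelial cells and 0.0183 RPKM in macrophages and a difference of 1.011 ± 1.015 (SE; adjusted p = 0.707, limma).

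Of the 31 other SoxF and endothelial transcription factor genes tested, 4 were higher in endothelial cells and none lower, with a median of 2.66. The share called higher over all tested genes was 0.676%, that is 119 genes. That number was 356 with voom, 73 with no filter and 82 without the photoreceptor libraries. With 1 library left out it was 76 to 141. With SOX7 counted the list had 5 genes called, against 15 with voom, 3 with no filter or without the photoreceptor libraries, and 2 to 7 with 1 library left out. They were LMO2 at 4.99 ± 1.08, BCL6B, a transcriptional repressor, at 4.75 ± 1.17, LEF1, the nuclear partner of beta-catenin in Wnt signalling, at 4.50 ± 1.09 and MECOM, a zinc finger factor, at 3.66 ± 1.014 (SE each). Their adjusted p in limma's test were 0.00703, 0.0204, 0.0174 and 0.0460, and the calls ended in 1, 8, 4 and 13 of 21 alternatives. None of the 8 other forkhead genes passed (median 1.503), while voom called foxf2a and FOXC1 higher and foxp1a lower in endothelial cells, and foxf2a was also called without endothelial control replicate 1. None of the 5 other homeobox genes tested passed (median 0.454), and only 5 of 15 reached the filter, and each of the 5 shown had 0 RPKM in at least 1 endothelial library, where HLX had 25.1 RPKM or more.

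Of 36 other endothelial surface genes tested, 10 were higher in endothelial cells and 1 lower, with a median of 2.29. Over all 17613 tested genes, 0.676% were called higher and 378 genes were called lower. The 6 genes named here are those with the smallest p, and the gene called lower is not among them. They included both genes named CLDN5, which encode claudin 5 of the tight junctions of brain vessels, at 8.06 ± 1.02 and 6.55 ± 1.04 (SE; adjusted p = 1.54e-05 and 2.59e-04, limma). SLC16A1, a lactate transporter, was higher by 6.78 ± 0.994, ADGRL4, an adhesion receptor, by 5.28 ± 1.00 and ABCB4, an efflux pump, by 5.03 ± 0.988 (SE; adjusted p = 9.45e-05, 0.00207 and 0.00282, limma). Tnfrsf9a was higher by 6.89 ± 1.07 (SE; adjusted p = 1.84e-04, limma). The calls of these 6 genes held in all 21 alternatives.

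The named genes most like each of the 5 were found by Pearson correlation of log2(RPKM + 1) over the 12 libraries, a description that mostly reflects the gap between the cell types. For kdrl these were EDNRA (r = 0.992), an endothelin receptor, ABCB4 (0.983) and ADGRL4 (0.981). EDNRA had 233 RPKM in endothelial arrival replicate 1, where kdrl was highest too, and 15.1 to 93.8 RPKM in the other endothelial libraries. For ANGPT2 they were pecam1a (0.971), LMO2 (0.953) and pdgfbb (0.943). For SOX7 they were a CLDN5 gene (0.988), fgd5a (0.986) and lama4 (0.985), a laminin chain of vessel basement membranes. For foxf2b they were tnfrsf9a (0.982), SOX7 itself (0.982) and fgd5a (0.980), and for HLX lama4 (0.986), fgd5a (0.985) and SLC16A1 (0.982).

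In the authors' deposited tables, which compare the stages within each cell type, none of the 5 genes was marked in any of the 6 comparisons. The authors' deposited tables give an adjusted p of 1 for each of them that has a value, and no p for foxf2b in macrophages.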

How the data were processed

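RNA-seq of photoconverted, sorted cells was available as 12 libraries in 6 groups of 2, grouped by the cell type and stage in the labels. Per the submitters' processing notes, the tools included HTSeq 0.6.0, DESeq 1.16.0, TopHat2 2.0.12 and Bowtie2 2.2.3; the genome build is not given in the sources used here. The authors deposited RPKM per gene and library, per the file headers. The authors also deposited a normalized signal (for each group, the mean of its size-factor scaled counts), and p-values for 6 stage comparisons. Whole reads were recovered from the RPKM and these means (100% of values above 0 within 0.05 reads); reads are not independent molecules.

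A gene was tested if 2 or more libraries had 10 or more reads of it, scaled to the median depth, and all libraries together 15 or more (17613 genes). Limma 3.58.1 in R 4.3.3 was fitted to log2(RPKM + 1), with variance trend and robust variances, with cell type and stage as terms, or with 6 group means for contrasts within a cell type or stage. On this scale differences of low genes are understated. P-values were two-sided and Benjamini-Hochberg adjusted over all tested genes, with a threshold of 0.05. The alternatives, 21 in number, were another pseudocount, filter or scaling, voom on recovered reads, a replicate block, no stage term and libraries left out.

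The 5 genes and all lists were chosen with earlier results of these data known. Of each list, up to 6 genes with the smallest p were to be named; genes most alike are the 3 with the highest correlation. Names were found for 22482 of 33737 IDs, and the kdrl ID was named through its deposited protein entry, while the name table gives kdrl another ID that is not analysed here. Upper-case symbols can stand for either zebrafish copy. SOX17 was not analysed here.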

Additional observations from a re-analysis of the deposited data

Results flagged for a closer look

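On the log2(RPKM + 1) scale, within each cell type, the highest and lowest of the 6 libraries were set against the others for each gene, in 9 groups of 6, since foxf2b was at 0 in all macrophage libraries. For normally distributed values, chance flags about 1 in 20 such groups. The macrophage groups hold many values of 0 or of a few reads, so this rate may not apply to them. ANGPT2 in macrophage arrival replicate 1, at 25.0 RPKM, stood apart from the other macrophage libraries, with a gap of 0.972 of the range against a critical value of 0.625 (n = 6). It was measured with 712 reads, and LMO2, pdgfbb and pecam1a were at their highest macrophage levels in the same library. These are the named genes with the highest correlation with ANGPT2 over all libraries, this one included. Their levels here are thus not independent of the ANGPT2 value. Kdrl in macrophage control replicate 2, at 0.0755 RPKM, stood apart with a gap of 0.821 of the range, but this value rests on 5 reads. No endothelial library of the 5 genes stood apart on the log2 scale. On the RPKM scale the same 2 values stood apart, with gaps of 0.996 and 0.826 of the range, and SOX7 in macrophage arrival replicate 2, at 1.39 RPKM, did so too, with a gap of 0.675.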

How the results depend on the processing

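All 5 genes kept their call between cell types under 21 of 21 alternatives, with differences between 4.62 (kdrl) and 13.1 (foxf2b, voom). The genes were chosen with earlier results of these data known, so refits of the same data are not independent support for these calls. The count of genes called between cell types was 497, against 307 with no filter, 1089 with voom and 242 without the photoreceptor libraries. It was 12 at control, against 5 with a pseudocount of 0.1, 22 with an RPKM of at least 1, 20 with quantile normalization and 776 with voom. It was 27 at arrival, against 12 with a pseudocount of 0.1 and 997 with voom. It was 15 at traction, against 7 with a pseudocount of 0.1, 25 with an RPKM of at least 1, 9 with quantile normalization and 889 with voom. Within each stage it was 0 with no filter and 0 without the photoreceptor libraries, which leaves 1 library in endothelial arrival and 1 in each traction group, assumed to vary like the other groups. Stage contrasts in endothelial cells had 0 calls, against 297 (arrival minus control), 307 (traction minus control), 228 (traction minus arrival) and 209 (lesion minus control) with voom. Leaving out 1 library gave 306 (without macrophage arrival replicate 2) to 531 calls over all stages, 0 to 21 at control, 0 to 52 at arrival, 0 to 160 at traction, 0 to 1 for arrival minus control and 0 to 2 for traction minus arrival. Without the photoreceptor libraries estimates turned to 0.745 (kdrl) and 0.444 (SOX7) for arrival minus control, to 1.774 (ANGPT2), 1.465 (SOX7) and 0.228 (foxf2b) for traction minus control, 0.461 for foxf2b traction minus arrival and 0.954 for SOX7 lesion minus control. SOX7 traction minus control was 0.144 with voom, and its traction minus arrival -0.233 with quantile normalization and -0.095 rescaled without the most abundant gene. Leaving out 1 library, arrival minus control ran from -1.84 to 0.745 (kdrl) and -1.77 to 0.444 (SOX7). Traction minus control then ran from -4.58 to 1.774 (ANGPT2), -2.71 to 1.465 (SOX7) and -3.99 to 0.228 (foxf2b). Traction minus arrival then ran from -2.76 to 3.60 (ANGPT2), -2.04 to 2.13 (SOX7), -3.23 to 0.987 (foxf2b) and -0.273 to 1.95 (HLX), and SOX7 lesion minus control from -1.69 to 0.400. Scaling moved the median of all genes over cell types to 0.062 (quantile), against -0.185, and voom moved it to -0.488 for arrival minus control (against 0), 0.286 for traction minus arrival (against -0.003) and -0.772 between cell types at traction (against -0.41); there it was 0.02 with quantile normalization and -0.993 with a pseudocount of 0.1, which gave -0.438 over all stages. With the replicate block 508 genes were called between cell types. Same-numbered libraries did not deviate together (r between -0.211 and 0.14). Since single libraries differ widely, this cannot tell whether the numbers pair the libraries. The causes were not tested, and few cells limit the precision of low values.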
